A study of Homo sapiens with 15 samples.

Results

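The response of MT-2 cells to interferon alpha (IFN-α) was described from the 3 arrays of IFN-α-treated cells and the 3 arrays of untreated cells, 6 of the 15 arrays of the series, across all 28926 transcript clusters. MT-2 is an established human line of CD4+ T cells that carries HTLV-1, the human T cell leukaemia retrovirus, which also causes a disease of the spinal cord. Treated cells received IFN-α2A at 1000 IU/ml for 48 h, and untreated cells were kept for the same 48 h without a drug. The arrays were chosen by their treatment labels and paired by the experiment tag that ends each title, so that each of 3 experiments gave 1 untreated and 1 IFN-α array. The design text describes the triplicates as separate RNA experiments, although by their titles experiments 2 and 3 share a day and are told apart by a letter. The other 9 arrays, of the same cells under ascorbic acid (AA) at 10, 50 or 100 µg/ml, entered the shared estimate of the spread. They also entered the choice of 1 cluster per gene, and some of their values are given for comparison. A single line was treated, at a single dose and a single time, and bulk RNA cannot tell fewer responding cells from less RNA per cell.

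Type I interferons bind a receptor made of IFNAR1 and IFNAR2, whose kinases JAK1 and TYK2 phosphorylate STAT proteins. These join IRF9 to form a transcription factor complex that recognises the interferon-stimulated response element in the promoters of its target genes. The products of these genes bind viral RNA, block translation and entry, modify proteins with the ubiquitin-like ISG15, present antigen and shut the receptor down again.

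Values were log2 intensities after robust multi-array averaging (RMA), so that a log2 change of 1 is a doubling, and a cluster was called at an unadjusted p under 0.001 in the limma fit, the threshold of the study's methods. A transcript cluster is the group of probes that the array summarises into 1 value, and of the 28926 clusters 19310 carried a single gene symbol, for 18377 genes. Among defining markers, CD4 (10.87 to 10.97 on the untreated arrays), the interleukin 2 receptor chain IL2RA (13.27 to 13.33) and the chemokine receptor CCR4 (11.40 to 11.47) were bright. The T cell receptor chains were dim, with CD3E at 5.24 to 5.28 and CD3D at 5.54 to 5.82 against a lower quartile of 5.25 over all clusters on the median array. All 14 measured markers of other blood cells lay between 3.61 and 7.13 in untreated cells, and all 14 were unresponsive to IFN-α. The array medians lay between 6.69 and 6.85, and 1 array of high-dose AA stood apart, with a mean correlation of 0.976 with the other arrays.

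The raised genes were led by antiviral effectors, and few genes passed the threshold in either direction. Of the 28926 clusters, 79 were higher in IFN-α-treated cells, which is 0.273% of those tested, and 2 were lower, which is 0.00691%. The 79 hold 77 distinct sets of values, since PSMB9 is counted in several clusters with the same values. About 28.9 calls, in both directions together, would pass this threshold if no cluster changed. After Benjamini-Hochberg adjustment over all clusters, 64 were higher at an adjusted p under 0.05, or 0.221% with the repeats of PSMB9 included, and 0 were lower. At an unadjusted p under 0.05, 151 clusters were lower, or 0.522%, and 402 passed in both directions together, or 1.39%. This is a smaller share than the 0.05 that would pass that threshold if no cluster changed. Of the 79 raised clusters, 39 changed by 1 or more on the log2 scale, 14 by 2 or more and 8 by 3 or more. With experiment as a replicate block, 99 clusters were higher, or 0.342%, among them all 79, and 2 were lower. The block added genes that are given below with their groups, and beside them CMTR1 (0.68), SLFN12L (0.66), APOL1 (0.52), CLEC2D (0.46), a cluster of UNC93B1 (0.44), MASTL (0.40) and 1 cluster without a symbol. Without the arrays of experiment 2, 49 clusters were called higher, all of them among the 79.

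The 3 IFN-α arrays lay above all 3 untreated arrays for each of the 79 raised clusters, and the difference was above zero in each experiment. Over all clusters, 2.62% had the IFN-α arrays entirely above the untreated arrays and 2.93% entirely below. The median difference of the 79 clusters was 1.07 in experiment 1, 1.05 in experiment 2 and 0.92 in experiment 3. Experiment 1 gave the largest difference for 42 of the 79, and for 11 of the 14 clusters that changed by 2 or more. The 79 clusters had median changes of -0.05, -0.06 and -0.08 under the low, intermediate and high dose of AA, measured against the same untreated arrays.

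**Figure D1:**
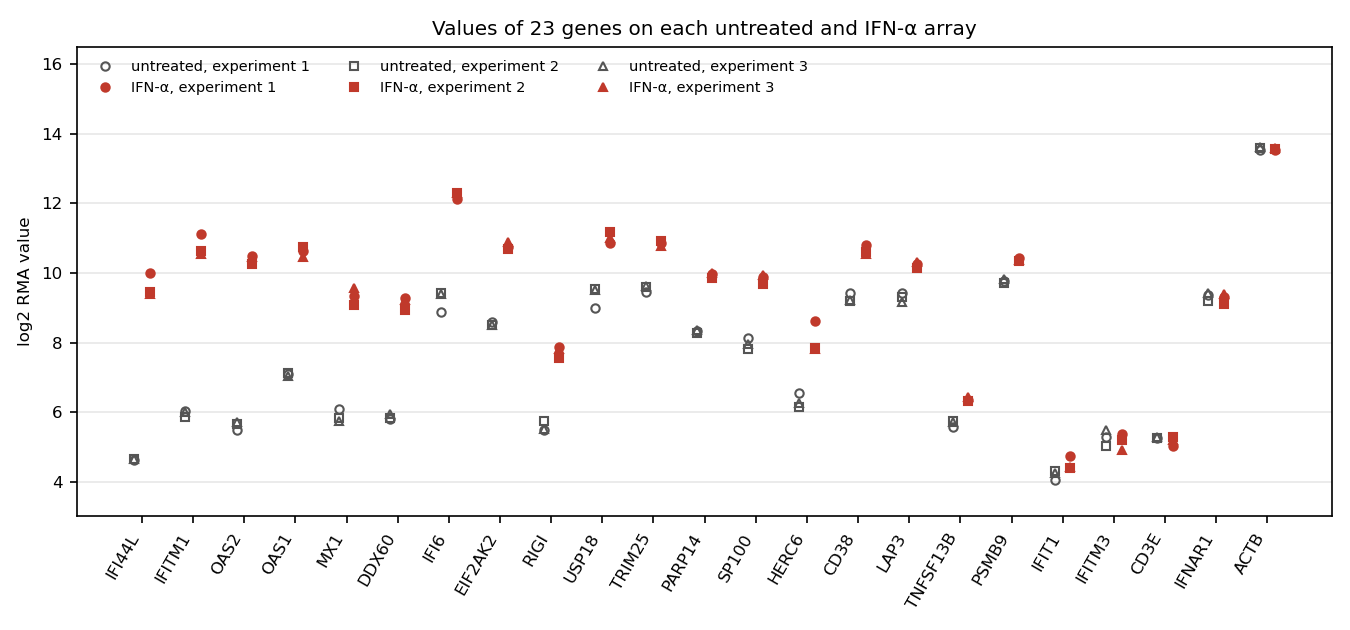
Log2 RMA values (y axis) of 23 genes (x axis) on the 3 untreated arrays (open symbols) and the 3 IFN-α arrays (filled symbols), with 1 symbol shape per experiment. The groups stand apart for the genes from IFI44L to PSMB9, whereas IFITM3, CD3E, IFNAR1 and ACTB overlap and IFIT1 moves little.

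The classical antiviral effectors held the largest changes. Of the 29 that were measured, 18 rose, 0 fell and the median change was 1.797, whereas 0.37% of all 18377 genes rose and the median change over them was -0.0092. OAS2, an enzyme that makes the oligoadenylates that activate RNA decay, read 5.50, 5.67 and 5.72 on the untreated arrays and 10.49, 10.26 and 10.47 on the IFN-α arrays. This was a rise of 4.78 ± 0.099 (SE, n = 3 per group) on the log2 scale, or 27.5-fold, with the smallest adjusted p of all clusters (limma, 1.86e-12). Its relatives OAS1 and OAS3 rose by 3.54 and 2.34. IFI44L, a poorly characterised antiviral gene, went from 4.62, 4.64 and 4.64 to 10.01, 9.46 and 9.40, the largest change among the 79 clusters at 4.99 ± 0.173. IFITM1, a membrane protein that hinders viral entry, went from 6.03, 5.87 and 6.01 to 11.13, 10.63 and 10.56, a change of 4.81 ± 0.152. Neither gene's groups came near to overlapping, and on the IFN-α arrays both were brightest in experiment 1.

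The GTPases that trap viral nucleocapsids also rose, MX1 by 3.44 ± 0.127 and MX2 by 2.30 ± 0.180. IFI6, which was already bright at 8.86, 9.42 and 9.40 in untreated cells, reached 12.12, 12.29 and 12.29, a rise of 3.00. EIF2AK2, the kinase that halts translation on binding double-stranded RNA, rose by 2.24, the phospholipid scramblase PLSCR1 by 1.797, IFI44 by 3.44, IFI35 by 1.92 and the apoptosis-linked XAF1 by 1.85. RSAD2, the viperin enzyme that makes a chain-terminating nucleotide, rose by 0.90 and stayed dim, from 4.78, 5.01 and 4.94 to 5.93, 5.68 and 5.82. SAMD9L, a restriction factor of poxviruses, was the brightest of the group in untreated cells and rose by 1.19 from 11.11, 10.94 and 10.99.

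The same families held members that were not called. IFIT5 and IFIT3, which bind viral RNA, rose by 2.46 and 2.21, whereas IFIT2 changed by 0.85 (limma, adjusted p = 0.79) and IFIT1 by 0.32, neither of them called. IFIT1 read 4.04, 4.31 and 4.24 in untreated cells and 4.74, 4.40 and 4.43 with IFN-α, so all 6 values lay under the lower quartile of 5.25. IFITM3 and IFITM2 changed by -0.11 (95% interval -0.39 to 0.18) and 0.04 (-0.36 to 0.44), and lay near that lower quartile. The IFITM paralogs are similar in sequence. The cluster of IFITM1 rose by 4.81 and those of IFITM2 and IFITM3 did not rise with it, and how far their probes tell the paralogs apart was not tested. OASL changed by 0.35 and was not called, and IFI27, a common marker of interferon responses in blood, by 0.09, with an interval of -0.10 to 0.27. With the replicate block, ISG20, SAMD9 and TRIM22 were called as well, which made 21 of the 29. The untreated array of experiment 1 read 9.78 for TRIM22 against 10.54 and 10.57 in the others, and its differences within experiments were 0.82, 0.46 and 0.38.

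**Figure D2:**
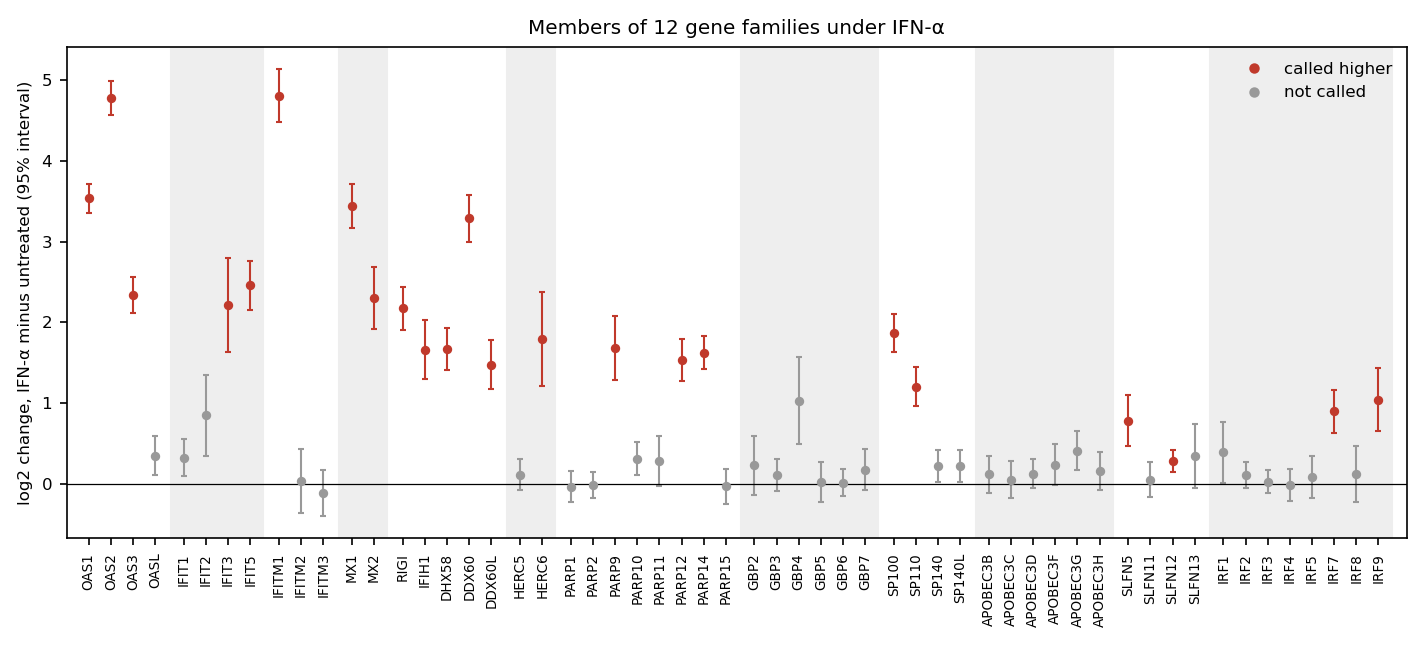
Log2 change with IFN-α (y axis, 95% interval from the limma fit, n = 3 per group) of selected measured members of 12 gene families, with called genes in red and all others in grey. PARP3, PARP4, PARP6, PARP8, PARP16 and TIPARP were measured and not called, and are not shown. Called members stand beside members that were not called in the OAS, IFIT, IFITM, HERC, PARP, SP, SLFN and IRF families, and the intervals of IFITM2, IFITM3, HERC5 and PARP1 include zero.

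The promoters of the raised genes were searched for the interferon-stimulated response element, a sequence property that played no part in the calls. The motif was spelled TTTCNNTTTC, or GAAANNGAAA on the other strand, where N is any base, and RefSeq promoters (GRCh38.p14) covered 250 bases before to 50 after the annotated start. A promoter was found for 55 of the 69 genes with a called higher cluster, and 27 of them, or 49.1%, held the motif, against 3.65% of all 27305 promoters. In 23 of the 27 a match began before the start, in 20 of them within 100 bases of it. A stricter spelling, AGTTTCNNTTTC or GAAANNGAAACT, was found in 23.6% of the 55 and in 0.271% of all promoters, and a looser one, TTCNNTTTC or GAAANNGAA, in 54.5% and 8.29%. Every strict match also counts as a match of the other spellings. For genes that rose by 1 or more on the log2 scale, 18 of 30 promoters held the motif, and for smaller rises 9 of 25. Of the 13343 promoters of unresponsive genes, 2.74% held it.

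The following stretches show where the motif lies in 6 raised genes of antiviral defence, whose rises ran from 0.63 for ISG15 to 4.99 for IFI44L, and, from EPSTI1 on, in 4 raised genes of other or less known roles. Each is written 5′ to 3′ on the gene's own strand, ends no later than the annotated start, and has 1 match in capitals. A further match in the IFI6 stretch is left in lower case, as is the start of one that overlaps the capitals in the ISG15 stretch.
IFITM1 (chr11:313970-314039, plus strand): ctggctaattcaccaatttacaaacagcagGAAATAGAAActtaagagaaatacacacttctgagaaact
IFI44L (chr1:78620345-78620414, plus strand): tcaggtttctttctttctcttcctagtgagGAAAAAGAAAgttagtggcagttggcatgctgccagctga
DDX60 (chr4:168318766-168318835, minus strand): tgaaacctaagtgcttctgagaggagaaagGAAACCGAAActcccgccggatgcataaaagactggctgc
IFI6 (chr1:27672246-27672315, minus strand): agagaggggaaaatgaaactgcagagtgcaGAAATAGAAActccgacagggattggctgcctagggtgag
IFIT3 (chr10:89327845-89327914, plus strand): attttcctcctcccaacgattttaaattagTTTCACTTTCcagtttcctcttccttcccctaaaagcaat
ISG15 (chr1:1013360-1013429, plus strand): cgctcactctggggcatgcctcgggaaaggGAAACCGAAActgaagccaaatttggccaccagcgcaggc
EPSTI1 (chr13:42992252-42992321, minus strand): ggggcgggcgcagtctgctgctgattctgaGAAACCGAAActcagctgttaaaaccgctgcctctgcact
LAP3 (chr4:17576985-17577054, plus strand): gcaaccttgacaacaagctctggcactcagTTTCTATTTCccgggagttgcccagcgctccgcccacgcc
SHFL (chr19:10086244-10086313, plus strand): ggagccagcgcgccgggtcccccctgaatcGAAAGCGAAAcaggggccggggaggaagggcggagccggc
TMEM140 (chr7:135147989-135148058, plus strand): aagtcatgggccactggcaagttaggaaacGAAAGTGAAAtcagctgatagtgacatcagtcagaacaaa

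DDX60, ISG15 and EPSTI1 carried the same 10 letters, and IFI6 held 3 matches of the motif in its promoter. The rises of these genes differed widely, from 0.63 for ISG15 to 3.29 for DDX60. OAS1, RIGI, SP100 and XAF1 rose and held no match, which says only that these letters are not in this window.

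Of the components that carry the signal from the receptor, IRF9 was the one whose transcript rose. Of the 16 measured genes of the receptor and JAK-STAT list, 1 rose, 0 fell, 15 were unresponsive and the median change was -0.0038. A gene was counted as unresponsive where the whole 95% interval of its log2 change lay within 0.5 of zero, which held for 93% of all 18377 genes. IFNAR1 read 9.35, 9.20 and 9.43 untreated and 9.30, 9.10 and 9.40 with IFN-α, and IFNAR2, JAK1 and TYK2 changed by -0.08, -0.03 and -0.04. The gene that rose was IRF9, the DNA-binding partner of the STAT proteins, from 8.21, 8.44 and 8.33 to 9.30, 9.57 and 9.25. This was a change of 1.04 ± 0.183 (limma, adjusted p = 0.028).

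Among the 8 measured interferon regulatory factors, IRF7, which amplifies interferon production, rose by 0.90 from 7.31, 7.19 and 7.08 to 8.25, 8.17 and 7.86. IRF1 changed by 0.39 and was not called, while IRF3 and the T cell factor IRF4 changed by 0.03 and -0.02 and were unresponsive. Without experiment 1 or without experiment 2, IRF9 missed the threshold, with changes of 1.02 and 1.001. Of the 13 negative regulators of the pathway, USP18, the protease that removes ISG15 and blocks IFNAR2, rose by 1.67 ± 0.161 from 8.996, 9.54 and 9.52 to 10.88, 11.18 and 11.02. The other 12, the feedback inhibitors SOCS1 (0.07) and SOCS3 (-0.05) among them, were unresponsive. USP18 has a near-identical copy in the genome, so its signal may include that copy.

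The ISG15 pathway attaches ISG15 to proteins through the E1 enzyme UBA7, the E2 enzyme UBE2L6 and E3 ligases, and 6 of its 7 measured members rose. ISG15 itself went from 7.70, 7.70 and 7.48 to 8.25, 8.23 and 8.29, a rise of 0.63. UBA7 rose by 0.79, UBE2L6 by 0.85 and the ligase TRIM25, which also activates RIG-I, by 1.29 ± 0.093. HERC6, a relative of the main human ligase HERC5, rose by 1.79 ± 0.270 from 6.54, 6.14 and 6.25 to 8.63, 7.85 and 7.82. HERC5 was unresponsive and dim, with 4.19, 4.23 and 3.92 against 4.18, 4.31 and 4.203. With the replicate block the adjusted p of HERC6 went from 0.0072 to 1.88e-06, and both its arrays in experiment 1 were the highest of their groups.

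The sensors of cytosolic RNA rose, whereas no sensor of DNA was called. RIGI (RIG-I) went from 5.47, 5.75 and 5.50 to 7.86, 7.55 and 7.83, a rise of 2.17 ± 0.125, IFIH1 (MDA5) rose by 1.66 and DHX58 (LGP2), which tunes both of them, by 1.67. The helicases DDX60 and DDX60L rose by 3.29 and 1.48. The DNA sensors CGAS, AIM2 and ZBP1 and the adaptors MAVS and TRAF3 were unresponsive, and of the 22 listed genes 5 rose and 13 were unresponsive. With the replicate block the adaptor MYD88 (0.40) and the RNA-editing enzyme ADAR (0.36) were called too, which made 7. The DNA sensor IFI16 changed by 0.40 and was not called in either fit.

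Nuclear body and tripartite motif (TRIM) genes rose in part. SP100, a nuclear body protein that represses viral chromatin, went from 8.14, 7.81 and 7.96 to 9.87, 9.69 and 9.95, a rise of 1.87 ± 0.111, and its relative SP110 rose by 1.21. PML, the organiser of these bodies, rose by 0.41, the antibody receptor TRIM21 by 1.04 and TRIM5, which binds retroviral capsids, by 0.67. PML had an adjusted p of 0.15 and TRIM5 of 0.12 (limma), so both were called at the unadjusted threshold only. Of the 16 measured genes 6 rose, 8 with the replicate block, which added TRIM56 and TRIM22, and the median change was 0.41. DAXX and TRIM28, partners in silencing, changed by -0.08 and -0.09 and were unresponsive.

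Of 16 measured ADP-ribosylation genes 4 rose and 10 were unresponsive. PARP14 rose from 8.33, 8.27 and 8.36 to 9.98, 9.86 and 9.99, a change of 1.63 ± 0.096, PARP12 by 1.53, PARP9 by 1.68 and DTX3L, the ubiquitin ligase that works in a complex with PARP9, by 1.40. The rest were not called, and PARP1, the DNA damage sensor, changed by -0.03 with an interval of -0.23 to 0.16. PARP10 changed by 0.31 and was not called. Of the 6 guanylate-binding proteins with a cluster of their own, which attack vacuoles of intracellular microbes, 0 were called. A further cluster, annotated to several genes of this family, was called higher with a change of 1.48 and cannot be given to 1 of them. GBP4 changed by 1.03 ± 0.252 (limma, adjusted p = 0.39), with differences of 1.54, 0.63 and 0.92 in the 3 experiments, and was called only with the replicate block.

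Since the line carries a retrovirus, factors that restrict retroviruses were listed on their own, although MX2, SAMHD1, BST2 and TRIM5 also belong to lists above. Of 15 measured, 5 rose and the median change was 0.35. All 15 changes were above zero, against 8236 of all 18377 genes. MX2, which blocks nuclear import of retroviral genomes, rose from 5.80, 5.93 and 5.69 to 8.67, 7.81 and 7.85. SAMHD1, which depletes nucleotides, rose by 0.58 from 8.97, 8.93 and 8.92, and SLFN5, a member of the Schlafen family, by 0.78. TRIM5 and SLFN12 made up the 5, both called at the unadjusted threshold only (limma, adjusted p = 0.12 and 0.24). The cytidine deaminases changed less, with 0.41 for APOBEC3G (limma, adjusted p = 0.79) and 0.24 for APOBEC3F, and none of the 6 measured was called. BST2 (tetherin), which holds budding virions, changed by 0.61 with an SE of 0.247, and MOV10 (0.55) was called only with the replicate block. The 15 host factors with a known part in HTLV-1 biology, such as CREB1, EP300 and the entry receptors SLC2A1 and NRP1, gave 0 calls and a median change of 0.015.

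In antigen presentation 1 gene of the class I pathway rose and none of class II was called. PSMB9, an immunoproteasome subunit, rose from 9.77, 9.72 and 9.81 to 10.44, 10.34 and 10.36, by 0.61 ± 0.113 (limma, adjusted p = 0.044). Of the 15 measured genes PSMB9 alone was called. Of their changes 14 were above zero, against 8236 of all 18377 genes, and the median was 0.19. The peptide transporter TAP1 changed by 0.31, with the same values in 3 clusters, and was called only with the replicate block, the proteasome activator PSME1 by 0.25 and B2M, the light chain of class I, by 0.19. Without experiment 1 or experiment 2, PSMB9 missed the threshold, with changes of 0.59 and 0.61. The 10 measured class II genes gave 0 calls and a median change of -0.00046, and HLA-DPA1, bright at 12.06 to 12.21, read 12.02 to 12.29 with IFN-α. CIITA, their master regulator, changed by 0.06.

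**Figure D3:**
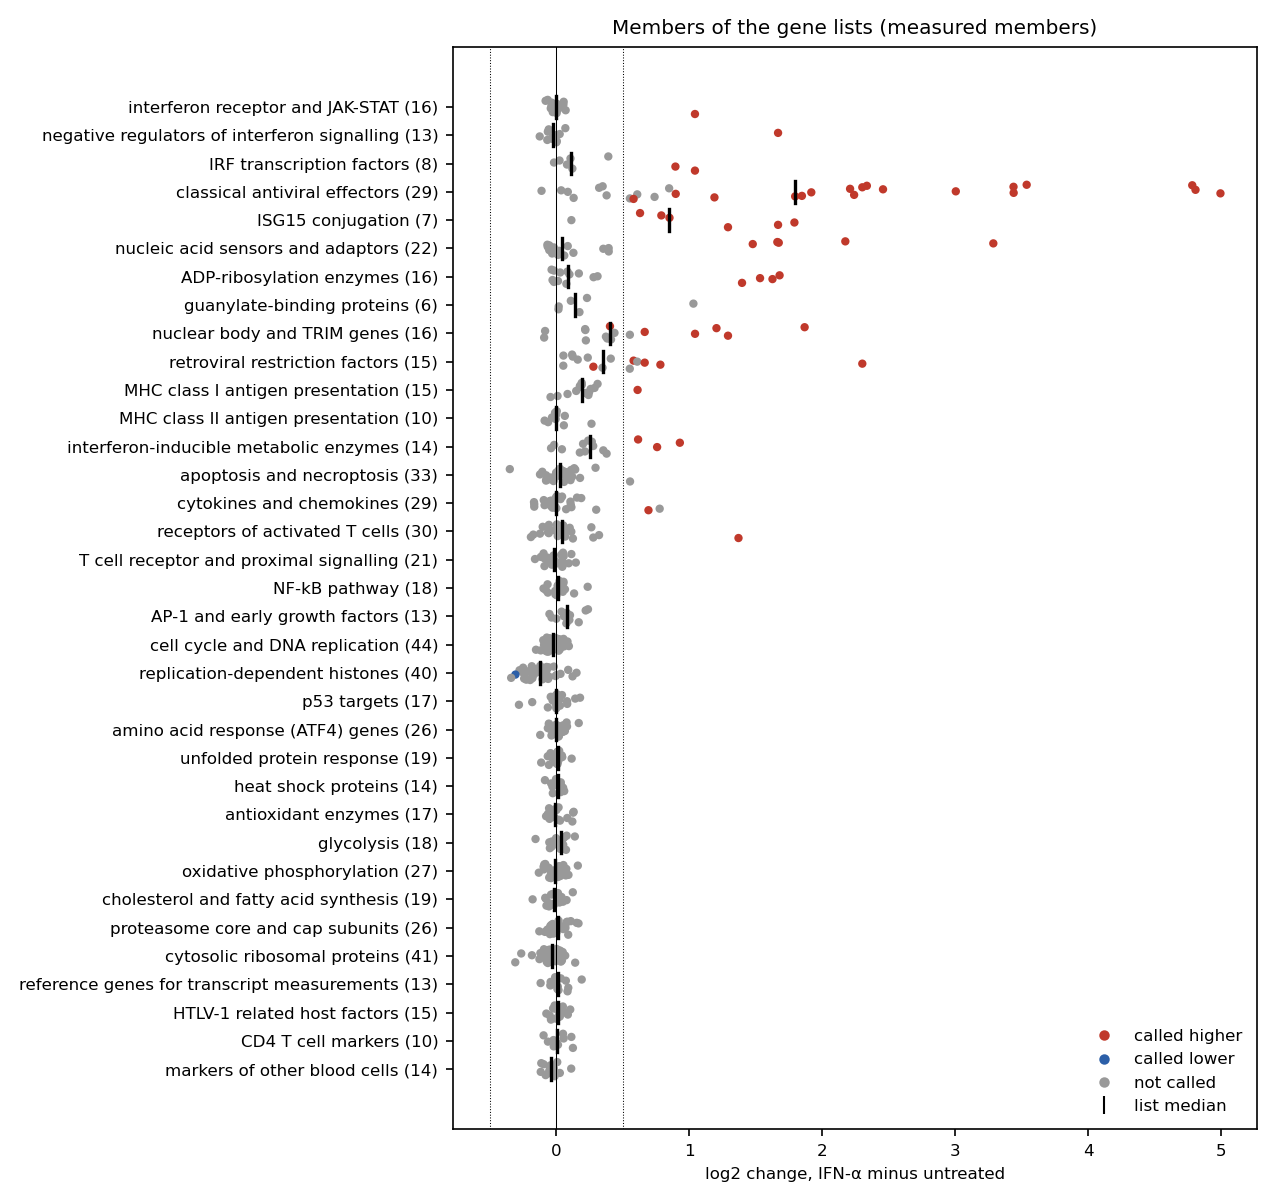
Log2 change with IFN-α (x axis) of every measured member of 35 gene lists (y axis, number of members in brackets), with called higher members in red, called lower in blue and the list median as a black bar, and dotted lines at -0.5 and 0.5. Most raised members sit in the upper lists, from IRF transcription factors to interferon-inducible metabolic enzymes, and the growth and stress lists lie close to zero.

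Beyond antiviral defence, 3 of 14 measured metabolic enzymes reported as interferon-inducible rose. LAP3, a leucine aminopeptidase, went from 9.44, 9.32 and 9.17 to 10.26, 10.14 and 10.31, a rise of 0.93 ± 0.098, PNPT1, a mitochondrial RNA-degrading enzyme, rose by 0.76 and CMPK2, a mitochondrial nucleotide kinase encoded beside RSAD2, by 0.62. IDO1, the tryptophan-degrading enzyme, was dim and unresponsive, with a change of -0.01 and an interval of -0.30 to 0.27. The list held 5 calls with the replicate block, which added ISG20 and ADAR.

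Of 29 measured cytokines and chemokines only TNFSF13B was called. This gene, which encodes the B cell survival factor BAFF, rose from 5.56, 5.75 and 5.71 to 6.34, 6.32 and 6.44, a change of 0.69 ± 0.093 (limma, adjusted p = 0.0022). CXCL10, a chemokine for CXCR3-bearing T cells, changed by 0.78 ± 0.245, read 7.27, 7.87 and 7.88 untreated against 8.28, 8.70 and 8.37, and was called with the replicate block. The related CXCL9 and CXCL11 were dim and unresponsive, with changes of 0.0024 and 0.08. Among 30 receptors of activated T cells, CD38, an ectoenzyme that consumes NAD and marks activated lymphocytes, rose from 9.42, 9.20 and 9.23 to 10.80, 10.61 and 10.55, by 1.37 ± 0.211. The checkpoint ligand CD274 (PD-L1) changed by 0.32 with an interval of -0.11 to 0.76, which leaves it neither called nor unresponsive. Without experiment 2, CD38 missed the threshold, with a change of 1.35.

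Of the 69 genes called higher, 48 were members of the lists and 21 were not. The largest rises among these 21 were those of EPSTI1 (1.23), a gene named for its induction by contact between epithelium and stroma, LY6E (1.06), a surface protein that alters viral entry, and SHFL (0.93), an inhibitor of ribosomal frameshifting. The endosomal sorting subunit CHMP5 rose by 0.88 with an adjusted p of 0.315 (limma), and of 0.0473 with the replicate block, and missed the threshold without experiment 2 or without experiment 3. SIDT1, a transmembrane protein of the family that carries double-stranded RNA, rose by 0.78, TMEM140 by 0.71, APOL6 by 0.62, REC8, the meiotic cohesin subunit, by 0.60 and the giant ubiquitin ligase RNF213 by 0.58. A second cluster of RNF213 changed by 0.46 and was called only with the replicate block. The smallest of the 79 rises, 0.28, was that of SLFN12, whose interval also lay within 0.5 of zero. Of the 79 clusters, 5 had no symbol and 3 had several, and these are not named.

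Raised clusters were found at every starting level, and the largest rises started low. When all clusters were ranked by their mean untreated value into 4 level classes of equal size, 6 of the 79 raised clusters lay in class 1, the dimmest (2.72 to 5.24), 20 in class 2, 27 in class 3 and 26 in class 4, the brightest (8.39 to 14.03). Their median changes were 1.48, 1.82, 0.93 and 0.82, with the repeated clusters of PSMB9 counted in class 4. Of the 14 clusters that changed by 2 or more, 11 came from classes 1 and 2. IFI44L moved from a position above 16.8% of clusters to one above 89%, and IFI6 from 85.4% to 99%. By contrast RSAD2 stayed in the lower part of the range, from 20.5% to 33.9%, and DDX60L went from 15.2% to 36.5%. Such ranks order signals and not molecules, since brightness also depends on the probes of each cluster.

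The 6 raised clusters of class 1 were under the array's lower quartile on all 3 untreated arrays, and 0 of them stayed there on all 3 IFN-α arrays. OR52N4, 1 of the 6, read 5.39, 4.97 and 5.15 with IFN-α, against lower quartiles of 5.225, 5.239 and 5.239 on those arrays, so it did not clearly leave the dim range. Ranking clusters by the 3 low-dose AA arrays in place of the untreated arrays, which the change does not share, gave 6, 21, 26 and 26. With the replicate block class 4 held 40 raised clusters in place of 26. Without experiment 2 classes 3 and 4 held 16 and 12, and without experiment 1 they held 17 and 16.

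**Figure D4:**
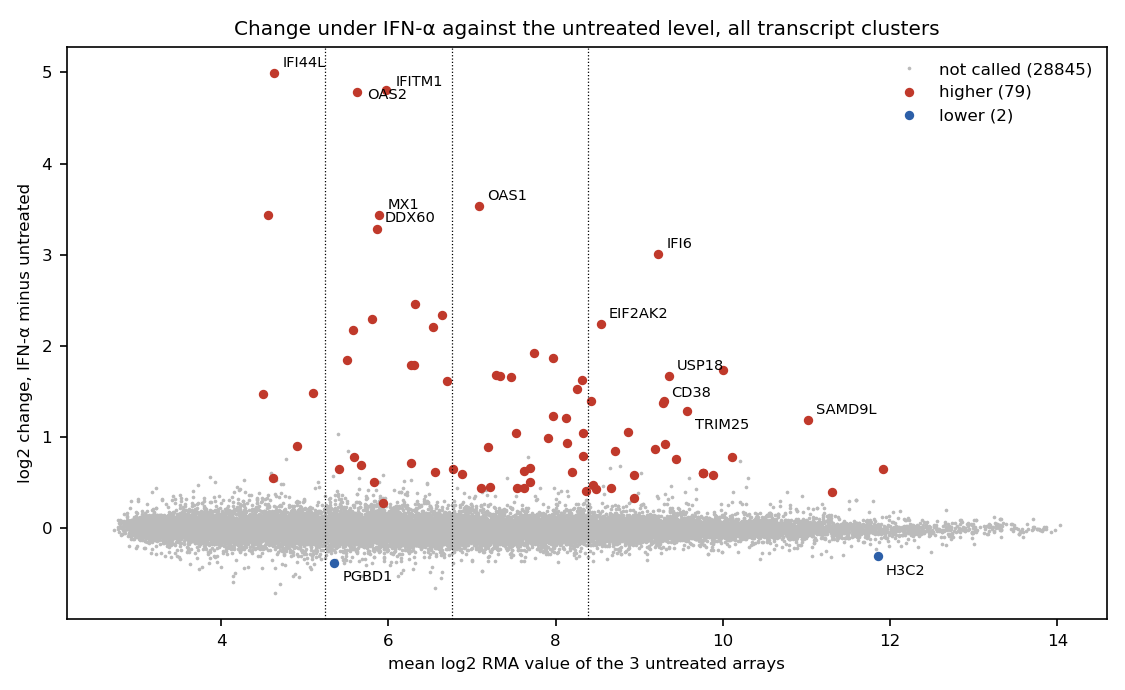
Log2 change with IFN-α (y axis) against the mean log2 RMA value of the 3 untreated arrays (x axis) for all 28926 clusters, with the 79 raised clusters in red, the 2 lowered in blue and dotted lines between the 4 level classes. Changes of 3 and more are found mostly at low untreated values, and the 2 lowered clusters lie close to the cloud of clusters that were not called.

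Most of the transcriptome was bounded close to zero. In all, 25633 of 28926 clusters were unresponsive, and with a margin of 0.3 on the log2 scale 13859 were. The 44 measured genes of the cell cycle and DNA replication gave 0 calls, 42 were unresponsive and the changes ranged from -0.15 to 0.10. MKI67, the proliferation marker, read 11.34, 11.04 and 11.22 untreated and 11.22, 11.05 and 11.31 with IFN-α, and the mitotic checkpoint kinase BUB1B had the lowest change at -0.15, with an interval of -0.36 to 0.06. All 19 genes of the unfolded protein response, all 14 heat shock genes and all 13 reference genes were unresponsive, ACTB with a change of -0.0066 and an interval of -0.14 to 0.13. Of 41 ribosomal protein genes 38 were unresponsive, or 92.7%. For the cell cycle genes the share was 95.5%, so both lay near the 93% of all 18377 genes.

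Apoptosis and necroptosis genes gave 0 calls among 33 measured, and 31 were unresponsive, or 93.9% against 93% of all 18377 genes. TNFSF10, the death ligand TRAIL, was bright in untreated cells at 11.47, 11.48 and 11.57 and read 11.81, 11.72 and 11.88 with IFN-α. Its change of 0.30 had an interval of 0.11 to 0.48, so it counted as unresponsive although every IFN-α array lay above every untreated array. MLKL, the pore-forming protein of necroptosis, changed by 0.56 (limma, adjusted p = 0.44) with all IFN-α arrays above all untreated arrays. The decoy receptor TNFRSF10D changed by -0.35 with a wide interval of -0.76 to 0.07. The death receptor FAS changed by 0.14 and was unresponsive. For the 19 genes of cholesterol and fatty acid synthesis, 0 were called, but only 6 could be bounded within 0.5, and their SEs reached 0.389 against a median SE of 0.113 over all clusters. The spread there was shared with AA arrays in the fit.

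Lowered genes were few and their changes small. PGBD1, a gene derived from a transposase, read 5.39, 5.37 and 5.30 in untreated cells and 5.06, 4.97 and 4.90 with IFN-α. It fell by 0.37 on the log2 scale (SE 0.074, limma, adjusted p = 0.081), and with the replicate block the adjusted p was 0.043. Its changes under AA, against the same untreated arrays, were -0.25, -0.23 and -0.30 at the 3 doses. H3C2, a replication-dependent histone H3 gene, read 11.91, 11.82 and 11.82 untreated and 11.61, 11.59 and 11.44 with IFN-α. It fell by 0.31 (SE 0.070, limma, adjusted p = 0.26), and its changes under AA were -0.00082, -0.04 and 0.03. For both genes the groups did not overlap, as for 2.93% of all clusters in that direction, and the interval of H3C2 lay within 0.5 of zero. Both calls were lost when any whole experiment was left out, with changes of -0.36 to -0.40 for PGBD1 and -0.27 to -0.34 for H3C2.

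Other histone genes of the same kind were looked at beside H3C2. Of 40 measured, 35 had changes below zero, against 10141 of all 18377 genes, 28 were unresponsive and the median change was -0.12. The median was -0.07 in experiment 1, -0.04 in experiment 2 and -0.26 in experiment 3, and -0.06 when experiment 3 was left out. H4C5, with differences of -0.23, -0.22 and -0.27 in the 3 experiments, changed by -0.24 and was not called. H4C3 had the lowest change of the list, -0.34, of which experiment 3 held most, with 10.49 untreated and 9.72 with IFN-α. Histone genes share much of their sequence, so that their clusters may not be independent of one another. Of the ribosomal protein genes RPS23 had the lowest change, -0.31 (limma, adjusted p = 0.92), and was not called.

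**Figure D5:**
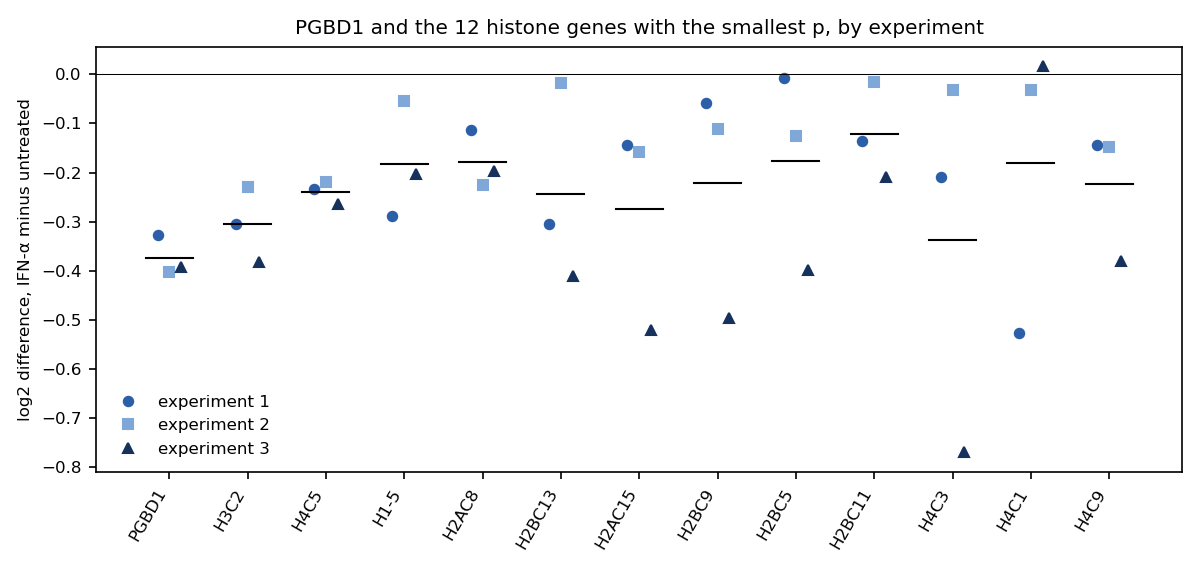
Difference between the IFN-α and the untreated array of each experiment (y axis, log2) for PGBD1 and the 12 histone genes with the smallest p (x axis), with the fitted change as a black line. PGBD1, H3C2 and H4C5 lie below -0.2 in every experiment, whereas the other histone genes spread more between experiments, and H4C3 is lowest in experiment 3 and H4C1 in experiment 1.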

How the data were processed

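RNA of MT-2 cells was hybridised to human whole-transcript gene arrays, 3 per condition. The deposited values are log2 intensities, which the authors made from the scans by RMA, per the submitters' processing notes in the labels. All 15 value columns were used. Arrays carry no counts, so their number limits the precision. Cluster names came from the platform annotation (19310 clusters with 1 symbol, 1752 with several, 7864 with none), with current symbols from RefSeq. For a gene with several clusters the one with the highest mean over all 15 arrays was taken for the lists, and 546 clusters repeat all 15 values of another.

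The test was limma 3.58.1 (lmFit and eBayes, R 4.3.3), two-sided, on all 15 arrays with 1 coefficient per condition and no block, as the study's methods name none. It had 10 residual and 3.91 prior degrees of freedom. Its p-values rest on the spread between the 3 arrays of each condition, pooled over all conditions, those with AA included. Without the high-dose AA array that stood apart, 94 clusters were called higher and 4 lower. The experiment tag in the titles paired the arrays. Deviations of the untreated and IFN-α array of an experiment from their group means correlated at 0.26, 0.536 and -0.0566. The fit with a replicate block stands beside results that it changed.

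The 36 gene lists, the thresholds and the members were chosen with earlier results of these data known, so they are descriptions: counts and medians are given beside those of all genes. Of 740 listed genes 657 had a cluster. Named genes were those the study named, the 20 with the smallest p per direction, and up to 6 members per list with the smallest p or a needed role. Raised genes outside the lists were named after their values were seen. The fit was tested on simulated data. Alternatives were other blocks, arrays, filters, variance models, normalizations, thresholds and left-out arrays.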

Additional observations from a re-analysis of the deposited data

How the results depend on the processing

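The 79 higher and 2 lower clusters became 120 and 7 with array weights, 131 and 17 at an unadjusted p under 0.01, 64 and 0 at an adjusted p under 0.05, and 39 and 0 when a log2 change of 1 was also asked. With a replicate block (paired arrays) 99 and 2 were called, and level class 4 (the brightest) held 40, and the block took away none of the 81 calls and changed no call other than those named with it in the results. The lower clusters numbered 1 with only the 6 arrays compared (with or without a replicate block), without the dimmest 25% of clusters and with arrays shifted to a common median. Class 1 (the dimmest) held 2 raised clusters without the dimmest 25%, and classes 1 and 4 held 11 and 44 with array weights. Unresponsive clusters numbered 13859 with a margin of 0.3. With the level from the untreated array of experiment 1 and the change from the others, classes 3 and 4 held 17 and 16, and with that of experiment 2 they held 16 and 12. The stricter motif was found in 23.6% of promoters.

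When single arrays or whole experiments were left out, higher clusters ranged from 49 to 94, lower clusters from 0 to 4, unresponsive clusters from 19337 to 27133, and the 4 level classes from 5 to 8, 16 to 23, 16 to 32 and 12 to 31. Called members of the lists (48) ranged from 39 to 54 and the 22 genes named by p from 20 to 22. Of 71 called genes, 43 kept their call in every fit, 14 lost it only when arrays were left out, 14 lost it in another setting, and 0 changed direction. The cause was not tested. A single line, dose and time and 3 arrays per group limit the description, and small changes such as those of the lowered genes lie near the threshold. Clusters without a symbol are unnamed.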
